A study of Rattus norvegicus with 10 samples.

Results

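The major histocompatibility complex (MHC) molecules of rat macrophages and the machinery that supplies them with peptides were examined in peritoneal macrophages that had or had not ingested myelin. Members were all probe sets whose single gene symbol in the array annotation begins with RT1-, the prefix of the rat MHC, or is one of 22 listed genes of antigen processing. This gave 62 of the 31042 probe sets tested, for 39 symbols: 31 probe sets for 18 RT1 symbols and 31 probe sets for 21 of the listed genes. Tapbpl, the remaining listed gene, had no probe set with it as the single symbol, and 6 probe sets that carry several RT1 symbols were left out. In the rat reference assembly GRCr8, 22 of the 39 symbols lie on chromosome 20, which holds the rat MHC.

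RNA was hybridised to 10 Affymetrix arrays of the rat genome, 5 per group, and the samples of control macrophages and of mye-macrophages are each numbered 1 to 5. All cells were resident peritoneal macrophages, enriched by adherence, of Hsdcpb:WU rats, a Wistar stock, with body weights of 200 to 224 g. Mye-macrophages received 100 µg/ml of isolated myelin for 3 days and control macrophages received none. Both groups were then exposed for 9 hours to IFNγ and IL-1β at 100 ng/ml, so the comparison concerns cytokine-stimulated cells only, and no unstimulated cells are among the samples. Neither the labels nor the methods give the age of the rats, or whether a sample came from 1 rat or from pooled rats. The p-values of the main fit, which pairs these samples by number, measure the spread of the differences within the pairs. Values are log2 RMA signals, and the number of arrays limits their precision. Macrophage markers differed in level on the arrays. The Cd68 probe set, for a lysosomal glycoprotein of macrophages, lay between 11.1 and 11.4 in control macrophages and between 11.3 and 11.5 in mye-macrophages. Cd163, another of the 9 measured, lay between 0.73 and 1.15 in control macrophages and between 0.49 and 2.81 in mye-macrophages. The 3 measured B cell markers, Blk, Cd79b and Ms4a1, summed to between 3.28 and 3.93 in control macrophages and between 3.49 and 4.17 in mye-macrophages, close to the lowest signals of the arrays. Markers of other cell types were not all so low: Lck, of T and NK cells, lay between 5.47 and 6.28, and Cpa3, of mast cells, reached 7.99. The gap between the 3' and 5' beta-actin control probe sets, a sign of RNA integrity, was 2.66 to 3.41 log2 units in control macrophages and 2.92 to 3.71 in mye-macrophages, and was larger in mye-macrophages in 4 of 5 pairs of the same number (the fit with this gap as a covariate is among the alternatives).

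As background, MHC class I molecules consist of a polymorphic heavy chain and β2-microglobulin, and present peptides of cytosolic proteins to CD8+ T cells. The peptides are cut by the proteasome, whose immunoproteasome subunits are induced by IFNγ, pumped into the endoplasmic reticulum by TAP1 and TAP2, trimmed there and loaded with the help of tapasin and chaperones. MHC class II molecules consist of an α and a β chain that travel with the invariant chain CD74 to endosomes, where DM exchanges the remnant of CD74 for peptides of ingested proteins, and present these to CD4+ T cells. In macrophages IFNγ switches on class II through the coactivator CIITA, which has no DNA binding of its own and docks on the RFX complex, CREB and NF-Y at the promoters of class II genes, Cd74 and DM. In the rat RT1-A is the classical class I region, RT1-B and RT1-D are the class II loci, and RT1-CE, RT1-M, RT1-N and RT1-T hold further class I genes.

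None of the 62 member probe sets passed the threshold of an adjusted p of 0.05 in the comparison of mye-macrophages with control macrophages. The nearest were Ciita, the class II coactivator, 0.49 above control on the log2 scale (SE 0.11, adjusted p = 0.0545), Cd74, the invariant chain, 0.38 below it (log2 difference -0.38, SE 0.09, adjusted p = 0.0695), and the non-classical class I gene RT1-N2, 0.26 above it (SE 0.07, adjusted p = 0.0889). In this limma fit, which holds the replicate number as a block, 2.69% of the 15521 probe sets in the adjustment passed, 0.792% higher in mye-macrophages (123) and 1.9% lower (295). Of the members, 48 were in that adjustment and the other 14 varied too little over the arrays to enter it. With all probe sets in the adjustment 0 members passed, at a lowest adjusted p of 0.109, and 0.412% of all did. At an unadjusted p under 0.05, 8 of 62 members (12.9%) were counted against 12.1% of all probe sets (5.51% higher and 6.62% lower), 7 of them higher in mye-macrophages (2 probe sets of Ciita, and Rfx5, RT1-M3-1, RT1-N2, RT1-N3 and a second probe set of Tap1) and 1 lower (Cd74). Ciita (adjusted p 0.0124 to 0.0462) and Cd74 (0.0105 to 0.0479) passed in 3 of the alternatives, namely a further quantile normalization, array weights, and a trended and robust variance prior. Without the block 0 probe sets of any gene passed, and 0 members were under 0.05 unadjusted in limma, the lowest p being 0.109, while 4.46% of all probe sets were.

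The members' differences between the groups were small. The median log2 difference over all 62 was -0.02, with 28 above 0 and 34 below, beside a median of 0.0044 over all probe sets tested. Their differences ran from -0.38 to 0.49, and 57 of 62 were under 0.25 in size. The median size was 0.0869 in the members and 0.0755 in all probe sets. The difference had the same sign in all 5 pairs of the same number for 9 members (14.5%) against 13% of all probe sets (6.16% higher and 6.84% lower), 6 of them higher in mye-macrophages (2 probe sets of Ciita, and Psmb10, Rfx5, RT1-M3-1 and RT1-N2) and 3 lower (Cd74, Rfxap and RT1-CE16). The groups overlapped for all 62 members. Of all probe sets 0.734% did not overlap (0.451% higher and 0.283% lower), a share too small for 0 of 62 to set the members apart. The lowest two-sided exact permutation p of a member was 0.151, where 5 against 5 samples allow 0.00794 at the least. These permutations ignore the pairs, so the spread between replicate numbers enters them and can hide a shift that the pairs share.

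**Figure D1:**
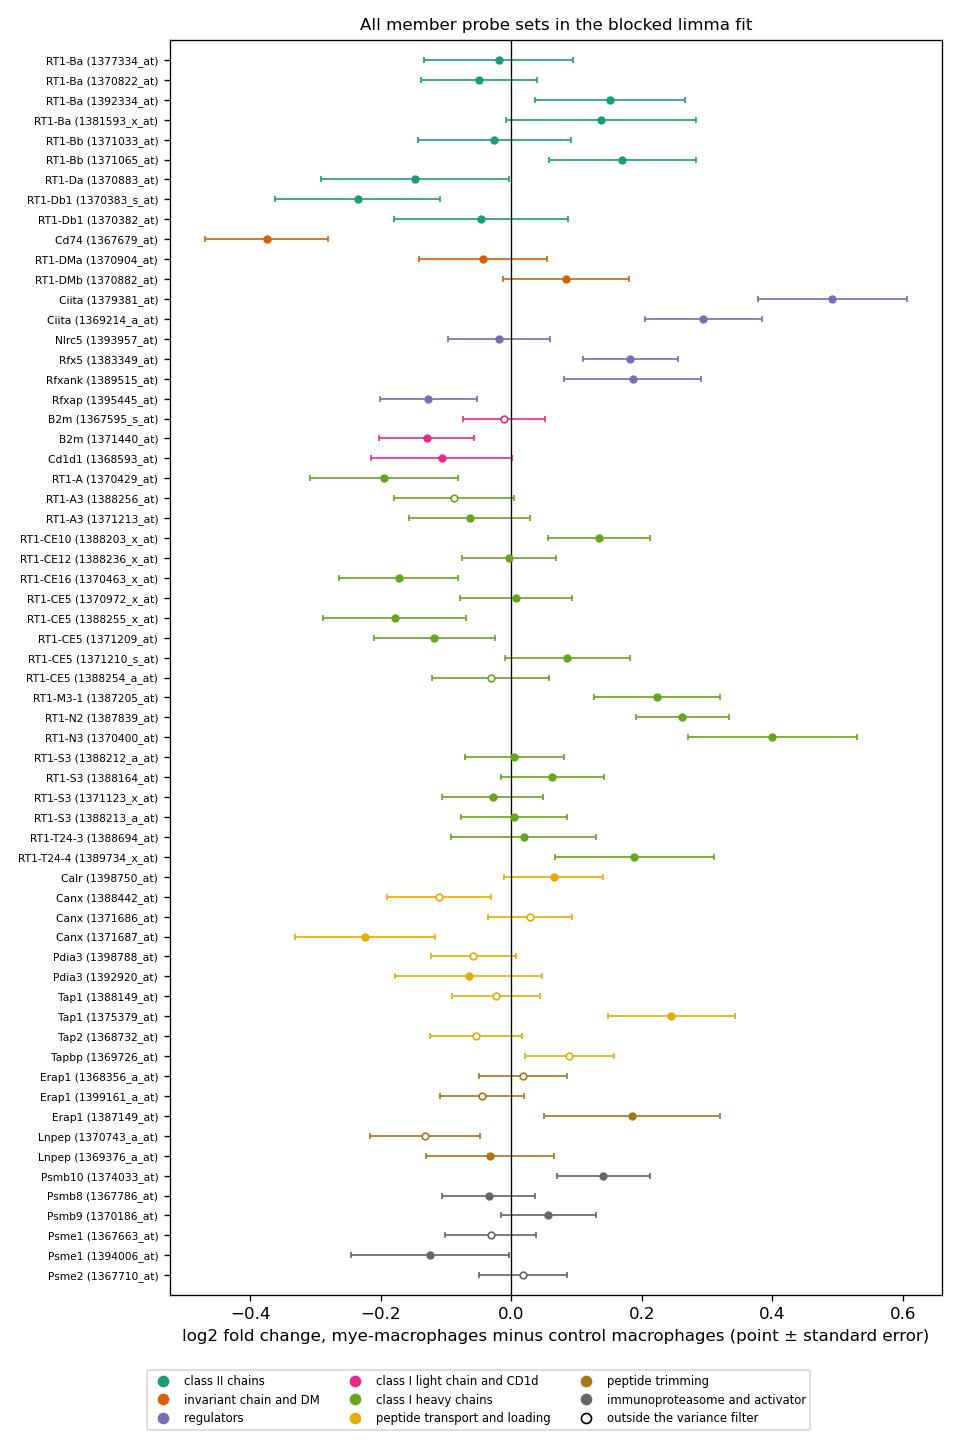
The log2 difference of mye-macrophages minus control macrophages is plotted on the x axis for each of the 62 member probe sets, named on the y axis, as a point with its standard error from the blocked limma fit, coloured by role and open where the probe set lay outside the variance filter. Most points lie within 0.25 of 0, Cd74 lies farthest to the left at -0.38 and Ciita farthest to the right at 0.49.

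Most of the variation of the MHC probe sets lay between replicate numbers, which the arrays of both groups share. Of a member's total variation over the 10 arrays, the replicate number took 89.2% and the group 1.66% (medians over 62), against 57.9% and 5.79% over all probe sets. The replicate number took over 90% in 29 members (46.8%) and in 9.52% of all probe sets. Such shares were not particular to the members. Among listed genes of class II processing Ctsc had 97.7% and Asah1 58.4%, and among macrophage markers Adgre1 had 98.9% and Cd68 48.8%. Of the 62 members 56 lay above the median mean of all probe sets, and the shares were not matched for signal level. The means of the pairs spanned over 2 log2 units in 16 members (25.8%) and in 0.896% of all probe sets, and 18 members were among the 310 probe sets (1%) with the largest SD of the pair means. Replicates stood in the same order in both groups for 15 members (24.2%) and for 5.3% of all probe sets. Where the pair means spanned over 2 log2 units, the order was the same for 12 of the 16 members and for 51.8% of all such probe sets. These shares are descriptions of 5 pairs. The labels and methods do not say what a replicate number stands for, and whether it marks a rat, a day or an array run cannot be told apart here. Rats of an outbred stock can carry different RT1 alleles, and the arrays hold no genotypes.

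**Figure D2:**
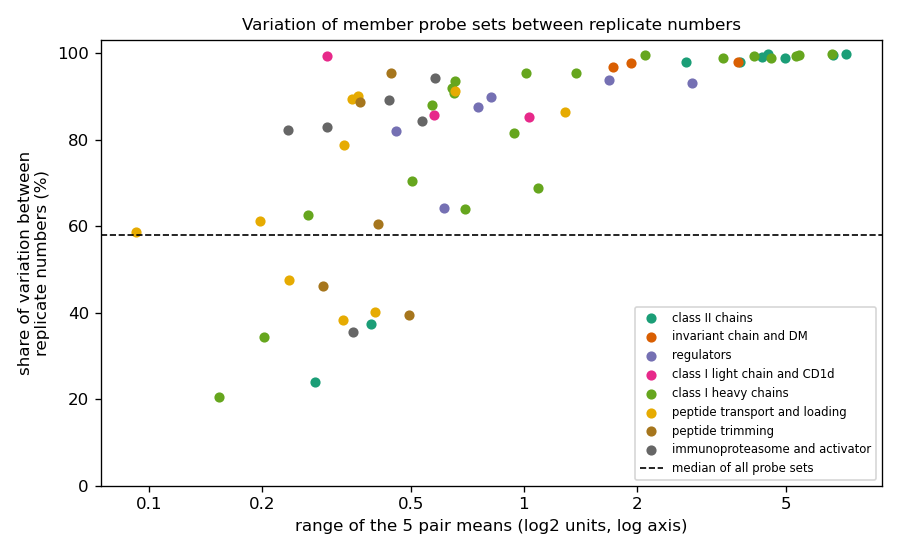
Each point is 1 of the 62 member probe sets, coloured by role, with the range of its 5 pair means on the x axis (log2 units, log axis) and the share of its variation over the 10 arrays that lies between replicate numbers on the y axis. Most class II chains, Cd74 and several class I heavy chains crowd the upper right, and the dashed line is the median of all probe sets at 57.9%.

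Among the class II chains 0 of 9 probe sets passed the test, and the replicates differed more than the groups. RT1-D and RT1-B are the rat counterparts of human HLA-DR and HLA-DQ, and RT1-Da and RT1-Ba encode their α chains, RT1-Db1 and RT1-Bb their β chains. RT1-Da measured 10.50, 10.56, 8.29, 6.83 and 8.92 in control macrophages 1 to 5 and 10.64, 10.79, 7.54, 6.97 and 8.40 in mye-macrophages 1 to 5. Replicates 1 and 2 were high and replicate 4 low in both groups, which overlapped throughout. The log2 difference was -0.15 (SE 0.14, adjusted p = 0.606), with 3 of 5 pairs higher.

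RT1-Db1 measured 9.74, 9.93, 7.08, 5.08 and 7.75 in control macrophages and 9.77, 10.07, 6.36, 5.01 and 7.19 in mye-macrophages. Its replicates stood in the same order as those of RT1-Da, and the span from replicate 4 to replicate 2 was 4.95 log2 units between pair means. The log2 difference between the groups was -0.24 (SE 0.13, adjusted p = 0.332). It was -0.11 without replicate 3, the pair with the largest difference of the 5 (-0.72), which moved it by more than 1.5 times.

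RT1-Ba measured 8.51, 8.86, 7.10, 6.23 and 7.93 in control macrophages and 8.96, 8.99, 6.84, 6.20 and 7.54 in mye-macrophages by its probe set of the highest mean, a log2 difference of -0.02 (SE 0.11, adjusted p = 0.942). A second RT1-Ba probe set spanned a wider range, from 5.41 in replicate 4 to 9.84 in replicate 2 of control macrophages, with a log2 difference of -0.05. The remaining 2 RT1-Ba probe sets differed by 0.15 and 0.14 and lay between 3.97 and 4.86 in all samples, so they did not follow the first in their spread. The 4 probe sets of this gene thus gave differences of either sign, none past the threshold.

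RT1-Bb was measured by 2 probe sets that ranked 3 and 4 among all 31042 probe sets by the SD of their pair means. The first measured 9.26, 9.65, 2.24, 4.16 and 7.21 in control macrophages and 9.31, 9.67, 2.59, 4.20 and 6.62 in mye-macrophages. The second measured 8.77, 9.08, 6.48, 2.50 and 2.77 in control macrophages and 9.10, 9.35, 6.13, 2.61 and 3.26 in mye-macrophages. Both were high in replicates 1 and 2, but the first was lowest in replicate 3 and the second in replicate 4, in either group. The order of replicates 3, 4 and 5 therefore depended on which probes of this gene were read, and how far allele sequence under the probes enters these levels was not tested. The log2 differences between mye-macrophages and control macrophages were -0.03 (SE 0.12) and 0.17 (SE 0.11). The latter was 0.30 without replicate 3, 0.09 without replicate 5 and 0.0072 with the beta-actin covariate.

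Over all 9 probe sets of class II chains, 0 passed the test, 3 differences were above 0 and 6 below, with a median of -0.03. The order 4, 3, 5, 1, 2 from low to high was found by pair means for RT1-Da, for a probe set of RT1-Db1, for 2 of RT1-Ba, for Cd74 and for both probe sets of B2m.

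**Figure D3:**
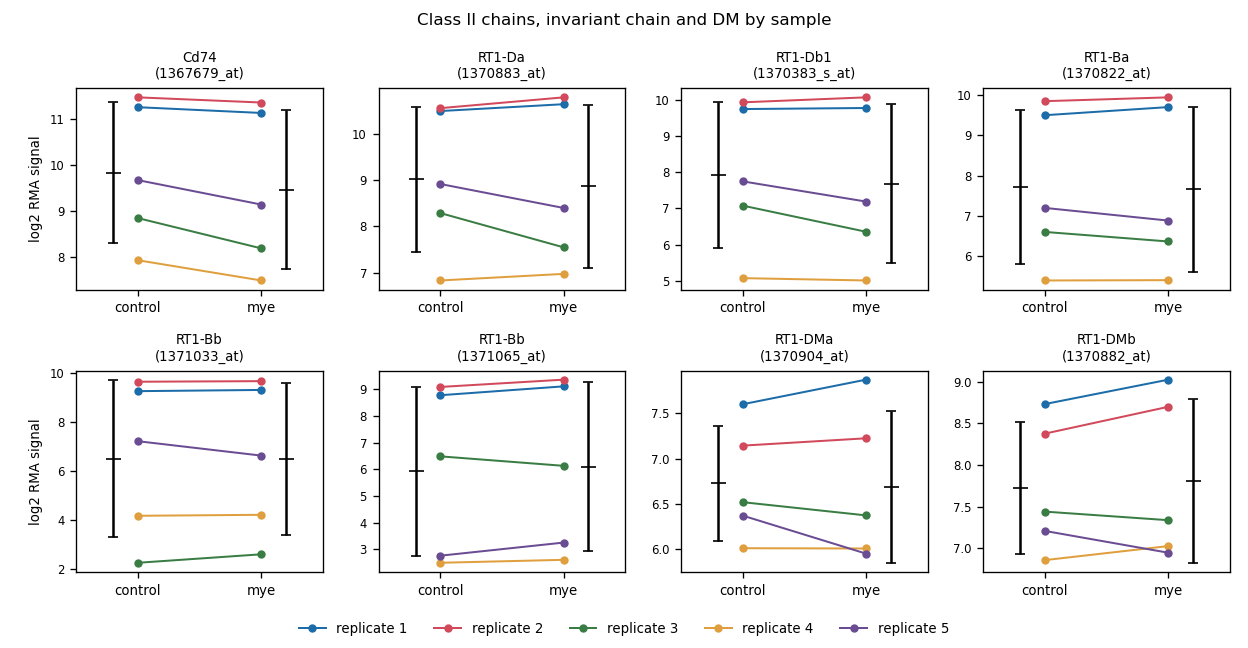
Log2 RMA signals (y axis) of 8 probe sets for class II chains, Cd74 and DM are drawn for control macrophages and mye-macrophages (x axis), with a coloured line for each replicate number and black bars for the mean ± SD of each group (n = 5). The lines lie far apart beside their slopes, with replicates 1 and 2 on top in each panel.

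The proximal promoters of 5 class II genes are shown with short strings of letters known from class II transcription. Windows are shown from 110 to 26 bases before the annotated start, written in the direction of the gene, from RefSeq on GRCr8, which is the genome of another rat strain. Capitals mark ATTGG, the core of the Y box that NF-Y binds, on either strand (CCAAT on the opposite one), and CAGATG, a loose end of the X box bound by the RFX complex and CREB.
RT1-Da, chr20:4515305-4515389, plus strand: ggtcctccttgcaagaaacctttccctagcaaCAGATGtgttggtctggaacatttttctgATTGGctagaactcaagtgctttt
RT1-Ba, chr20:4576947-4577031, plus strand: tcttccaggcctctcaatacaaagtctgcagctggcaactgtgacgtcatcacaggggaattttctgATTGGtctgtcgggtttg
RT1-Bb, chr20:4604144-4604228, minus strand: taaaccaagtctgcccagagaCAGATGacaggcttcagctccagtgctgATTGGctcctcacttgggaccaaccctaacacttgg
RT1-Db1, chr20:4560188-4560272, minus strand: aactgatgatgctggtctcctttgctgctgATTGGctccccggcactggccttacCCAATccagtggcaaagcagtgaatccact
RT1-DMa, chr20:4712361-4712445, minus strand: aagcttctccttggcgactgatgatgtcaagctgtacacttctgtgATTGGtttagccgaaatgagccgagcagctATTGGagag
All 5 windows hold ATTGG or its complement, and those of RT1-Da and RT1-Bb also hold CAGATG. Over the 250 bases before the start, either strand held ATTGG in 22 of the 33 member promoters that the table lists (66.7%) and in 34.0% of all 33469 promoters, and CAGATG in 6 (18.2%) and 14.0% of them. A match is a string of letters in a window and was not tested as a site.

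Cd74, the chaperone and placeholder of class II molecules, differed from control in the same direction in all 5 pairs. It measured 11.27, 11.48, 8.85, 7.93 and 9.68 in control macrophages and 11.14, 11.37, 8.18, 7.48 and 9.14 in mye-macrophages. Each mye-macrophage sample lay below the control sample of its number, by 0.11 to 0.66 log2 units, yet the groups overlapped almost wholly (9.84 ± 1.53 and 9.46 ± 1.74, SD, n = 5). The gaps were smallest in replicates 1 and 2, where Cd74 was highest. The adjusted p was 0.0695 in the blocked limma fit. The two-sided exact permutation p over samples, which ignores the pairs, was 0.706.

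RT1-DMa and RT1-DMb encode the α and β chains of the peptide exchanger DM. RT1-DMa measured 7.60, 7.14, 6.52, 6.01 and 6.37 in control macrophages and 7.87, 7.22, 6.37, 6.0 and 5.95 in mye-macrophages, a log2 difference of -0.04 (SE 0.10, adjusted p = 0.836). RT1-DMb measured 8.73, 8.38, 7.44, 6.86 and 7.21 in control macrophages and 9.02, 8.70, 7.34, 7.03 and 6.95 in mye-macrophages, a log2 difference of 0.08 (SE 0.10, adjusted p = 0.667). Both were higher in mye-macrophages in replicates 1 and 2 and lower in replicates 3 and 5. Replicates 1 and 2 were again the highest in either group.

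Ciita, the coactivator that class II genes, Cd74 and DM share, lay above control in all 5 pairs by both of its probe sets. The first measured 6.77, 6.06, 4.82, 4.18 and 4.61 in control macrophages (5.29 ± 1.08, SD, n = 5) and 7.78, 6.27, 5.27, 4.76 and 4.82 in mye-macrophages (5.78 ± 1.27). Replicate 1 had the largest pair difference, 1.01 log2 units, and replicate 5 the smallest, 0.20. The fitted difference of 0.49 is a 1.41-fold ratio, and it was 0.36 without replicate 1. The second probe set measured 4.37, 4.57, 3.36, 2.87 and 3.23 in control macrophages and 5.00, 4.63, 3.75, 3.11 and 3.38 in mye-macrophages, a log2 difference of 0.29 (SE 0.09, adjusted p = 0.115). Ciita and Cd74 thus differed in opposite directions in each of the 5 pairs, while both were high in replicates 1 and 2 and lowest in replicate 4. That the differences themselves differ was not tested.

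The RFX subunits carry CIITA to the X box. Rfx5 measured 5.95, 5.35, 5.73, 6.14 and 5.63 in control macrophages and 6.36, 5.51, 5.90, 6.23 and 5.71 in mye-macrophages, higher in all 5 pairs, with a log2 difference of 0.18 (SE 0.07, adjusted p = 0.204). Rfxap measured 5.89, 6.11, 5.61, 5.33 and 5.79 in control macrophages and 5.53, 6.04, 5.60, 5.19 and 5.74 in mye-macrophages, lower in all 5 pairs, with a log2 difference of -0.13 (SE 0.07, adjusted p = 0.369) that was -0.07 without replicate 1. Rfxank lay between 3.04 and 3.87 in all samples and differed by 0.19 (SE 0.11). Nlrc5, the coactivator of class I genes, measured 6.58, 6.58, 6.47, 6.21 and 6.51 in control macrophages and 6.72, 6.35, 6.35, 6.19 and 6.66 in mye-macrophages, a log2 difference of -0.02 (SE 0.08, adjusted p = 0.917). Of the 6 probe sets of regulators, 4 differences were above 0 and 2 below, with a median of 0.18, and 0 passed the test.

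**Figure D4:**
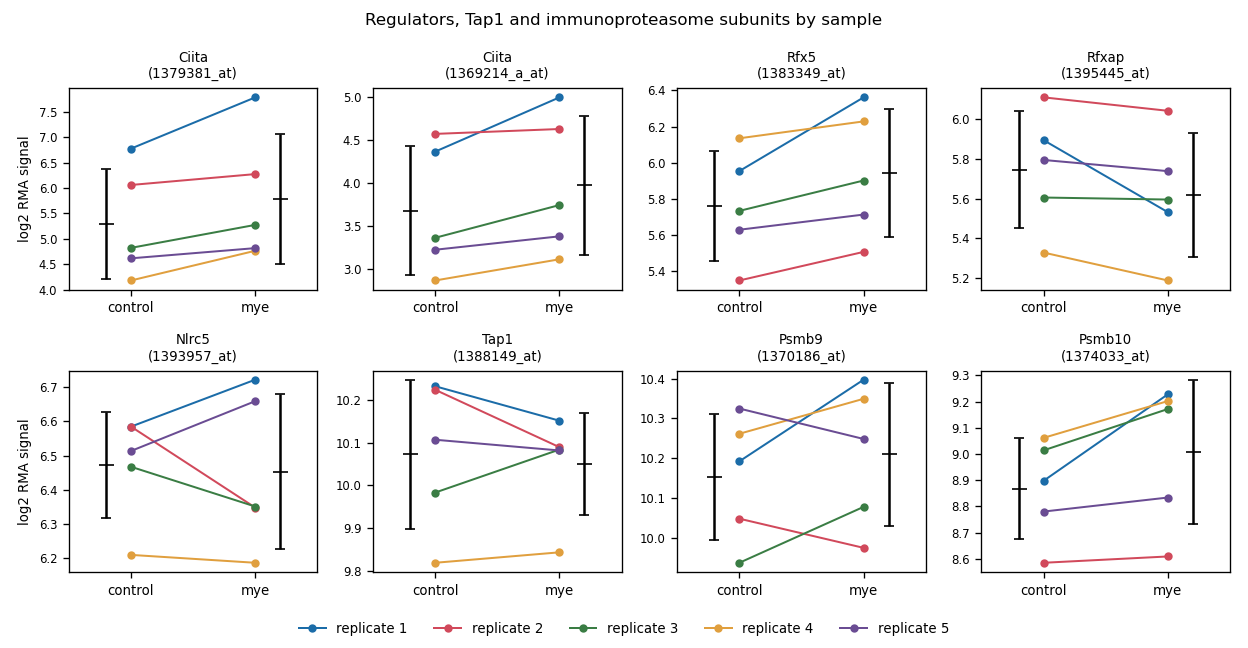
Log2 RMA signals (y axis) of the regulators Ciita, Rfx5, Rfxap and Nlrc5 and of Tap1, Psmb9 and Psmb10 are drawn for control macrophages and mye-macrophages (x axis), with a coloured line for each replicate number and black bars for the mean ± SD of each group (n = 5). All 5 lines run upward for both Ciita probe sets, Rfx5 and Psmb10 and downward for Rfxap, and the groups overlap in each panel.

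The class I heavy chains were measured by 20 probe sets of 12 symbols, and 0 passed the test. Their differences were spread evenly around 0, with 11 above and 9 below and a median of 0.0043. Because class I genes are near copies of each other, a probe set may read several of them, and the symbol names only the gene that the annotation gives. The probe set of the classical gene RT1-A measured 6.51 to 7.18 in control macrophages, with a median of 6.55, and 6.20 to 6.98 in mye-macrophages, with a median of 6.55, a log2 difference of -0.20 (SE 0.11) that was -0.07 without replicate 2. The 4 probe sets of RT1-S3, a non-classical class I gene, differed by -0.03 to 0.06, and each was lowest in replicate 4 by pair means.

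Several class I probe sets went from the floor of the array to clear signal between replicate numbers. A probe set of RT1-CE5, ranked 5 among all probe sets by the SD of its pair means, measured 0.33, 0.77, 7.04, 5.04 and 6.20 in control macrophages and 0.50, 0.34, 7.09, 4.92 and 5.95 in mye-macrophages. Replicates 1 and 2 were at the floor and replicate 3 highest in both groups, and the groups differed by -0.12 (SE 0.09, adjusted p = 0.514), which was -0.04 without replicate 2 and -0.19 without replicate 1. A second RT1-CE5 probe set, ranked 8, measured 1.99, 1.40, 6.53, 4.64 and 5.87 in control macrophages and 1.38, 1.23, 6.75, 4.59 and 5.56 in mye-macrophages, with a log2 difference of -0.18 (SE 0.11) that was -0.07 without replicate 1 and -0.28 without replicate 3. Another RT1-CE5 probe set did not share this pattern and lay between 6.12 and 6.59 in all samples.

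RT1-N2, a gene of the RT1-N group of non-classical class I genes, measured 0.95, 0.85, 4.93, 0.91 and 3.74 in control macrophages and 1.22, 1.29, 5.22, 1.04 and 3.92 in mye-macrophages. Replicates 3 and 5 alone stood clear of the floor, and 3 of the 5 pairs behind its log2 difference of 0.26 lay near it. RT1-T24-3 measured 4.32, 5.26, 8.83, 3.66 and 7.88 in control macrophages and 4.80, 5.04, 9.01, 3.36 and 7.85 in mye-macrophages, a log2 difference of 0.02 (SE 0.11, adjusted p = 0.942). RT1-T24-4 measured 5.37, 5.27, 9.91, 7.29 and 9.22 in control macrophages and 6.20, 5.40, 9.87, 7.34 and 9.20 in mye-macrophages, a log2 difference of 0.19 (SE 0.12, adjusted p = 0.421) that was 0.03 without replicate 1. Replicates 3 and 5 were the highest for each of these 3 genes.

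RT1-CE12 measured 9.25, 9.32, 10.80, 8.69 and 10.47 in control macrophages and 9.36, 9.46, 10.68, 8.60 and 10.41 in mye-macrophages, and its difference between the groups was -0.0030 (SE 0.07). RT1-CE16 ran the other way and measured 7.67, 7.87, 4.72, 6.65 and 6.61 in control macrophages and 7.64, 7.79, 4.15, 6.50 and 6.59 in mye-macrophages. Here replicates 1 and 2 were the highest and replicate 3 the lowest, and the log2 difference was -0.17 (SE 0.09, adjusted p = 0.320), lower in all 5 pairs. It was -0.07 without replicate 3.

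RT1-M3-1 belongs to the RT1-M group, whose mouse counterpart H2-M3 presents formylated peptides. It measured 7.56, 7.15, 8.11, 8.06 and 7.67 in control macrophages and 8.22, 7.36, 8.28, 8.12 and 7.68 in mye-macrophages, higher in all 5 pairs, with a log2 difference of 0.22 (SE 0.10, adjusted p = 0.234) that was 0.12 without replicate 1. RT1-N3 measured 4.54, 4.64, 4.65, 4.00 and 4.21 in control macrophages and 5.51, 4.95, 5.11, 3.87 and 4.61 in mye-macrophages, with 4 of 5 pairs higher and a log2 difference of 0.40 (SE 0.13, adjusted p = 0.132). It was 0.26 without replicate 1, which had the largest pair difference of the 5, 0.97.

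**Figure D5:**
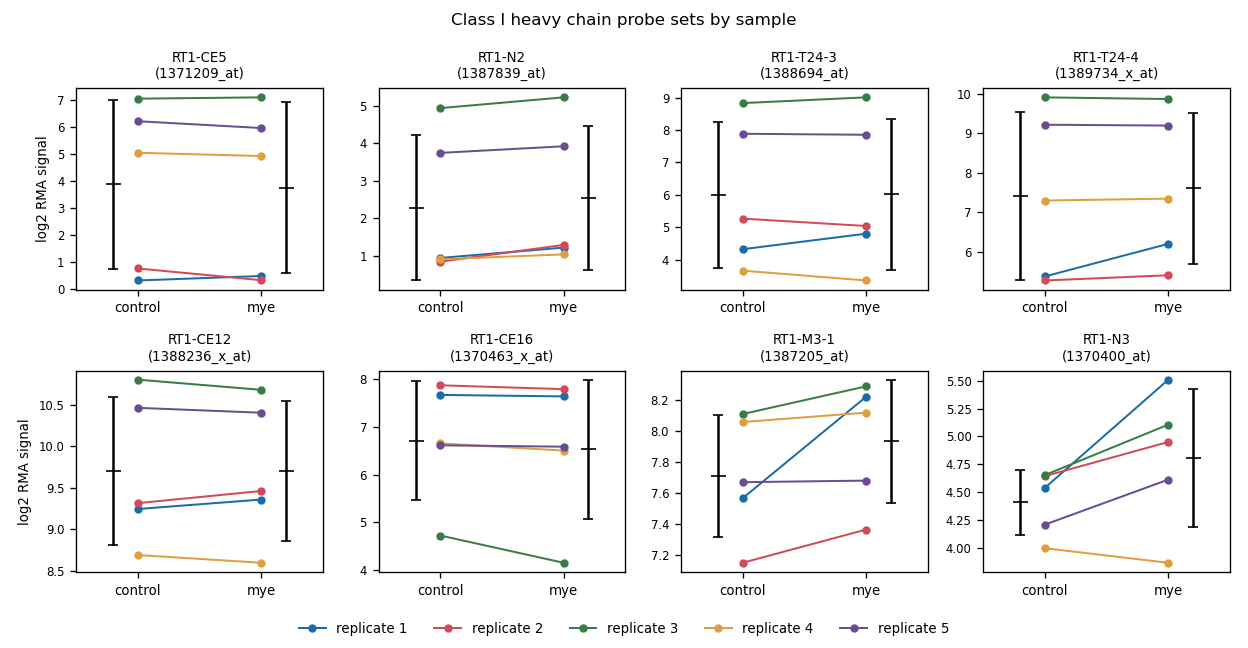
Log2 RMA signals (y axis) of 8 class I heavy chain probe sets are drawn for control macrophages and mye-macrophages (x axis), with a coloured line for each replicate number and black bars for the mean ± SD of each group (n = 5). Replicates 3 and 5 lie highest for RT1-CE5, RT1-N2, RT1-T24-3, RT1-T24-4 and RT1-CE12, and replicate 3 lies lowest for RT1-CE16.

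The β2-microglobulin gene B2m, whose product completes all class I molecules and CD1d, was nearly constant by its probe set of the highest mean. This probe set measured 12.77, 12.85, 12.67, 12.54 and 12.74 in control macrophages and 12.74, 12.84, 12.66, 12.55 and 12.72 in mye-macrophages, a log2 difference of -0.01 (SE 0.06). The differences of the 5 pairs ran from -0.03 to 0.01. A second B2m probe set varied more, from 10.50 to 11.29 over all samples. It differed by -0.13 (SE 0.07, adjusted p = 0.346) and was lower in 4 of 5 pairs. Cd1d1, which presents lipids to NKT cells, measured 3.84, 4.32, 3.75, 2.97 and 3.59 in control macrophages and 3.60, 3.75, 3.98, 3.04 and 3.54 in mye-macrophages, a log2 difference of -0.11 (SE 0.11, adjusted p = 0.619).

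Of the genes that cut, carry and load class I peptides, 0 passed the test. Tap1, a chain of the peptide transporter, measured 10.23, 10.22, 9.98, 9.82 and 10.11 in control macrophages and 10.15, 10.09, 10.08, 9.84 and 10.08 in mye-macrophages, a log2 difference of -0.02 (SE 0.07). A second Tap1 probe set, at 1.71 to 3.45, differed by 0.25 (SE 0.10, adjusted p = 0.198). Tap2, the other chain, measured 9.05, 8.97, 8.92, 8.95 and 9.11 in control macrophages and 9.12, 8.84, 9.00, 8.82 and 8.95 in mye-macrophages, a log2 difference of -0.05 (SE 0.07). Tapbp, the loading factor tapasin, measured 6.88, 6.81, 6.90, 6.92 and 6.69 in control macrophages and 7.13, 6.86, 7.0, 7.01 and 6.66 in mye-macrophages, a log2 difference of 0.09 (SE 0.07). The groups of all 3 genes overlapped.

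The chaperone calreticulin, Calr, measured 7.10, 7.44, 6.91, 7.23 and 6.94 in control macrophages and 7.30, 7.69, 6.91, 7.15 and 6.90 in mye-macrophages, a log2 difference of 0.07 (SE 0.08, adjusted p = 0.669). Calnexin, Canx, had 3 probe sets with differences of -0.22, -0.11 and 0.03, and the oxidoreductase gene Pdia3 had 2, with -0.06 and -0.07. Over the 10 probe sets of transport and loading, 4 differences were above 0 and 6 below. The peptidase Erap1, which trims peptides in the endoplasmic reticulum, measured 9.65, 9.55, 9.59, 9.88 and 9.61 in control macrophages and 9.61, 9.47, 9.67, 9.87 and 9.75 in mye-macrophages, a log2 difference of 0.02 (SE 0.07). The other 4 probe sets of Erap1 and of Lnpep, an endosomal peptidase, differed by -0.13 to 0.19.

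The immunoproteasome subunits replace the constitutive catalytic subunits in cells exposed to IFNγ. Psmb8 measured 10.16, 10.12, 10.32, 9.75 and 9.85 in control macrophages and 10.34, 9.98, 10.28, 9.69 and 9.75 in mye-macrophages, a log2 difference of -0.03 (SE 0.07, adjusted p = 0.821). Psmb9 measured 10.19, 10.05, 9.94, 10.26 and 10.32 in control macrophages and 10.40, 9.97, 10.08, 10.35 and 10.25 in mye-macrophages, a log2 difference of 0.06 (SE 0.07, adjusted p = 0.698). Psmb10 measured 8.90, 8.59, 9.01, 9.06 and 8.78 in control macrophages and 9.23, 8.61, 9.17, 9.20 and 8.83 in mye-macrophages, higher in all 5 pairs, with a log2 difference of 0.14 (SE 0.07, adjusted p = 0.303). It was the only one of the 3 subunits with the same sign in all pairs.

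Psme1 and Psme2 encode the α and β chains of PA28, the proteasome activator that IFNγ also induces. Psme1 measured 9.81, 9.58, 9.98, 9.75 and 9.82 in control macrophages and 9.93, 9.40, 9.88, 9.77 and 9.79 in mye-macrophages, a log2 difference of -0.03 (SE 0.07). Psme2 measured 10.90, 10.77, 10.90, 10.88 and 10.82 in control macrophages and 11.00, 10.68, 11.02, 10.86 and 10.80 in mye-macrophages, a log2 difference of 0.02 (SE 0.07). Replicate 2 was lowest in both genes and groups.

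The genes below are shown with the stretch of promoter that holds the core of the interferon-stimulated response element (GAAA, any 2 bases and GAAA again) because, outside the heavy chain genes, they are the members in whose promoters it was found. Sequences are from RefSeq on GRCr8 in the direction of the gene, and capitals mark the motif, which in Tap1 lies on the opposite strand.
Tap1, chr20:4668640-4668679, minus strand: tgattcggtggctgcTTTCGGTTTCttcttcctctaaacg
Tap2, chr20:4652313-4652352, minus strand: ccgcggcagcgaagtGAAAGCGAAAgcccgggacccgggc
Tapbp, chr20:4967878-4967918, minus strand: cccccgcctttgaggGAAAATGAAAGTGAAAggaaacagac
Psmb10, chr19:50743293-50743380, minus strand: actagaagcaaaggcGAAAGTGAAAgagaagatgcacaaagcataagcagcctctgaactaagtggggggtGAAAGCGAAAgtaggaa
Psme2, chr15:33052780-33052819, minus strand: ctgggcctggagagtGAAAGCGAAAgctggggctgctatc
B2m, chr3:129549165-129549204, plus strand: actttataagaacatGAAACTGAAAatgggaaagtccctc
This motif was found in 8 of the 33 member promoters (24.2%: these 6 with RT1-N3 and RT1-S3) and in 3.41% of all 33469. Tap2 and Psme2 share the letters GAAAGCGAAA, which the second match of Psmb10 also has. Tap1 and Psmb9 lie head to head with their starts 457 bases apart, so the Tap1 sequence shown lies between them.

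Other genes of these pathways were counted from lists, by 1 probe set a gene. Of the 11 measured genes listed for class II processing in endosomes (cathepsins, Lgmn, Ifi30 and other lysosomal genes), 0 passed the test. Their median log2 difference was 0.0021, with Asah1 at 0.11 and Ctsc at -0.09 the farthest from 0. Of 11 genes of MHC transcription (NF-Y subunits, Creb1, Irf1 and others) 0 passed; by the probe set of the highest mean, the largest difference was that of Kat2b, an acetyltransferase that CIITA recruits, at 0.26 (SE 0.07, adjusted p = 0.0911), followed by Creb1, a factor of the X box, at -0.25 (SE 0.10, adjusted p = 0.222). Further probe sets of this list differed by more, with Crebbp, another acetyltransferase, at -0.79 (SE 0.20, adjusted p = 0.0711) and Nfyb, a subunit of NF-Y, at -0.39 (SE 0.15, adjusted p = 0.197). By their probe sets of the highest mean, Crebbp was at -0.04 and Nfyb at -0.13. Of 6 genes of class II turnover 0 passed, with Cd83 at -0.25 and Cd82 at -0.22 (adjusted p = 0.163 and 0.105). Among the 6 partners of class I and CD1, Fcgrt, the neonatal Fc receptor, differed by 0.29 (adjusted p = 0.129) and Procr, a CD1-like receptor of protein C, by -0.26 (adjusted p = 0.161), and 0 passed. Among the 12 cytosolic peptidases and genes of cross presentation 0 passed, with the peptidase Thop1 at -0.22 and Sting1 at -0.15. Among the 11 folding partners of class I 0 passed, with Hspa5 at -0.15 and Sec61a1 at -0.12. Among the 5 genes listed with the constitutive proteasome 0 passed, with Psmf1 at -0.12 and Psmb5 at 0.11.

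Of the 33 measured marker genes of cell types, 22 had a larger share of their variation between replicate numbers than the median of all probe sets (57.9%) and 11 a smaller one. Adgre1, which encodes the macrophage antigen F4/80, measured 5.32, 5.09, 7.49, 7.39 and 5.53 in control macrophages and 5.41, 5.29, 7.21, 7.23 and 5.26 in mye-macrophages, high in replicates 3 and 4 and low in 1, 2 and 5. Other macrophage markers had other orders: Lyz2, for lysozyme, was highest in replicate 1 and lowest in replicate 4 of both groups, and Cd14, a lipopolysaccharide receptor, was highest in replicate 4 and lowest in replicate 2. Among T and NK cell markers, Lck and Klrk1 were highest in replicates 1 and 2 of both groups, as RT1-Da was, and Cd2 was highest in replicate 4. The summed level of the 6 mast cell markers ran from 8.97 to 27.4 in control macrophages and from 10.2 to 28.7 in mye-macrophages, and Cpa3, a mast cell protease, was highest in replicate 4 of both groups at 7.92 and 7.99. The sum of the 2 measured dendritic cell markers, Flt3 and Clec9a, was 2.67 to 3.47 and 2.36 to 3.82, that of the 8 T and NK cell markers 23.5 to 27.0 and 22.5 to 28.3, and that of the 5 mesothelial and fibroblast markers 7.94 to 12.1 and 8.0 to 12.5. In bulk samples fewer cells of a type and less RNA per cell cannot be told apart, and the part of these cells in the levels of the MHC genes was not tested. The 9 measured macrophage markers summed to between 60.5 and 71.8 in control macrophages and between 61.3 and 74.6 in mye-macrophages. Between the groups, 1 of the 33 measured marker genes passed the test, where 2.69% of all probe sets in the adjustment did. Mrc1, the macrophage mannose receptor, was 0.71 higher in mye-macrophages (SE 0.12, adjusted p = 0.0265), and higher in all 5 pairs. It measured 1.40, 0.95, 2.49, 4.41 and 2.18 in control macrophages and 2.51, 1.22, 3.26, 5.42 and 2.55 in mye-macrophages. Several of these signals lay near the floor, and its adjusted p in limma without the block was 0.935.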

How the data were processed

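RNA of 10 samples, 5 control macrophages and 5 mye-macrophages, was hybridised to Affymetrix rat genome arrays. The authors deposited log2 RMA values made with the affy package, for 31099 probe sets with none removed; background correction and quantile normalization had thus been done. The values were used as deposited, and 57 Affymetrix control probe sets were left out. Symbols come from the platform annotation that GEO holds, and 38 of the 39 member symbols matched RefSeq by gene identifier. limma 3.58.1 (R 4.3.3) was fitted to all 31042 probe sets, taking the replicate number as a block, and p-values were adjusted (Benjamini-Hochberg, threshold 0.05) within the 50% of probe sets that varied most by interquartile range; other probe sets have no adjusted p. The methods name an unpaired test and no adjustment, and the test was run as an alternative with the adjustment used here. The numbers were taken to pair the samples because deviations from the group means correlated at 0.404 to 0.791 for each same-numbered pair (threshold 0.1) and at 0.279 at most across numbers, so the pairing rests on numbers in the labels and on this check. The fit was tested on simulated data. Exact permutation tests enumerated the 252 splits. Figures and motif searches used Python 3.11 with pandas 2.3.3. The search for 1 further promoter motif is not reported here.

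The members and lists were chosen with earlier results of these data known. Sample-by-sample values are given for the highest-mean probe sets of Cd74, RT1-Ba, RT1-Bb, RT1-Da, RT1-Db1, RT1-DMa, RT1-DMb, B2m, Tap1, Tap2, Tapbp, Psmb8, Psmb9, Psmb10, Psme1, Psme2, Ciita, Nlrc5, Erap1, Calr and Cd1d1, and for any member that passed the test or did not overlap between groups (0). The second probe sets of Ciita and RT1-Bb, and those of Rfx5, Rfxap, RT1-CE5, RT1-CE12, RT1-CE16, RT1-M3-1, RT1-N2, RT1-N3, RT1-T24-3 and RT1-T24-4, were chosen after their values were seen. Alternatives changed the block, the test, the filter, the scaling, array weights, the variance prior and the probe sets, added the beta-actin gap as a covariate, and left out each pair.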

Additional observations from a re-analysis of the deposited data

Results flagged for a closer look

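Among 68 groups of 5 samples checked for a sample far from the others, over the members with sample-by-sample values, 1 was found: in mye-macrophages Tap1 measured 9.84 in replicate 4, while the other 4 samples lay between 10.08 and 10.15. The gap was 0.774 of the range, above Dixon's critical value of 0.71 for 5 samples. Chance gives about 1 such group in 20. The control sample of replicate 4 was also the lowest of its group, at 9.82.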

How the results depend on the processing

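The median log2 difference of the members stayed within the spread over pairs (SD 0.0778) in all alternatives, at -0.036 to 0.019. Changing the block, the test, the filter or the variance prior leaves each difference as it was, so the median could not move there. The count of members past the threshold was 0, except for 2 (Ciita higher, Cd74 lower) under a further quantile normalization, array weights, and a trended and robust variance prior. Of the 43 members whose probe sets lack the suffixes of shared probes, and of the 56 above the median mean, 0 passed. These 2 counts, chosen after seeing the data, are parts of the main fit and could not exceed its 0. The 418 probe sets called over all genes became 0 without the replicate block, 0 in a paired t-test per probe set and 0 in the methods' t-test. The last was held to the adjusted threshold of 0.05, and the methods name no adjustment. The count was 128 without the variance filter, 1041 with the trended and robust prior, 16 with the beta-actin gap as covariate and 257 with 1 probe set per symbol. It was 31 without replicate 1, 42 without replicate 2, 672 without replicate 3, 72 without replicate 4 and 38 without replicate 5. The cause was not tested. Differences near 0 changed sign, and so did some larger ones. In the main fit these were RT1-T24-4 at 0.19, RT1-CE5 (the probe set ranked 8) at -0.18, RT1-Da at -0.15 and Cd1d1 at -0.11. With the further quantile normalization B2m was at 0.018 and Nlrc5 at 0.0060, and with array weights RT1-T24-3 at -0.018. With the beta-actin covariate Cd1d1 was at 0.047, RT1-DMb at -0.0086, RT1-Bb at 0.042, Tap1 at 0.030, RT1-CE5 (the probe set ranked 8) at 0.020, RT1-T24-3 at -0.074, RT1-T24-4 at -0.018 and Calr at -0.0088. Without a change of sign, the covariate made other differences larger: Cd74 was at -0.52, RT1-Db1 at -0.40, RT1-Da at -0.33 and RT1-CE16 at -0.29. It made those of Ciita (0.40) and RT1-N3 (0.22) smaller, and 0 members passed with it. With a pair left out the ranges were -0.070 to 0.0035 for Psme1, -0.0073 to 0.046 for Psme2, -0.013 to 0.043 for Erap1, -0.19 to 0.0074 for Cd1d1, -0.24 to 0.0014 for RT1-Da, -0.12 to 0.051 for RT1-DMa, -0.12 to 0.11 for RT1-Bb, -0.14 to 0.073 for RT1-Ba, -0.054 to 0.0048 for Tap1, -0.040 to 0.027 for RT1-CE12, -0.096 to 0.10 for RT1-T24-3 and -0.060 to 0.036 for Nlrc5. Of the 29 members whose difference was over 0.1 in size, 22 moved by more than 1.5 times when a pair was left out. RMA signals near the floor of the arrays, as for RT1-N2 and RT1-CE5 in some replicates, limit what a difference there can show.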
